A study of Rattus norvegicus with 12 samples.

Results

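The genes described here are those named for nuclear subunits of the oxidative phosphorylation system, chosen as every array probe whose gene name in the array files starts with Nduf, Sdh followed by a to d, Uqcr, Cox4 to Cox8, or Atp5. The rule took 81 of 41012 probes, which stand for 71 genes, and 68 of these were measurable enough to be tested among 26545 genes in all. By name 32 of the 71 go with complex I, 4 with complex II, 5 with complex III, 15 with complex IV and 14 with complex V, helper genes and other names included, and 1 goes with none. The samples were hepatocytes, the metabolic cells of the liver, isolated by collagenase digestion from Sprague-Dawley rats aged 11 weeks. They were plated for 24 h with serum, kept for 24 h without it and then treated for 6 h. The 4 groups of 3 arrays were female dexamethasone, female vehicle, male dexamethasone and male vehicle, where dexamethasone, a synthetic glucocorticoid, was given at 100 nM and the vehicle was 0.01% ethanol. Sex is that of the sample titles. The design sets the glucocorticoid response of one sex beside that of the other. No label ties a replicate to its own animal or dish, and a p-value here therefore reflects only the scatter of these samples, part of which may be technical.

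Oxidative phosphorylation is the chain of inner-membrane enzymes that turns the energy of NADH and succinate into ATP. Complexes I and II pass electrons to ubiquinone, complex III passes them to cytochrome c, complex IV passes them to oxygen, and complex V, the ATP synthase, uses the proton gradient so built. The liver draws on it for gluconeogenesis and urea synthesis, both known targets of glucocorticoids. Most subunits are encoded in the nucleus and the rest in the mitochondrial genome, so the set covers the nuclear share. Several subunits of complex IV have paralogs whose use differs between tissues, such as Cox4i1 and Cox4i2, or Cox6a1 and Cox6a2.

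A level is given here as log2 of the background-subtracted spot signal minus the array's 75th percentile of it, so that 0 is the level of a probe at that percentile. Levels of different probes are not set against each other, and complexes are compared by their differences between groups. Of the 71 genes, 65 were well above background on all 12 arrays, a flag of the scanning software. The 3 genes left untested were Cox6b2, the testis isoform of a complex IV subunit, which was well above background on 0 of 12 arrays, Cox6c1, now named as a pseudogene of Cox6c and above background on 4, and Cox6b, above background on 3. The probe named Cox6b is described in the files as uroplakin, and gave no complex IV measurement. Over the 48 bases by which the probes of Cox6c and Cox6c1 overlap, 41 are identical. The name rule also took in genes that are not subunits: Cox4nb, now Emc8, of the endoplasmic reticulum, the assembly factor Ndufaf1, Atp5s, now Dmac2l, and Cox7a2l, which takes part in joining complexes III and IV. Names are kept as the files give them; Atp5a1, Atp5b, Atp5g1, Atp5h and Atp5o are now Atp5f1a, Atp5f1b, Atp5mc1, Atp5pd and Atp5po, and Cox8h is now Cox8b.

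The probe of Atp5g1 is shown because it carries the difference between sexes with the smallest adjusted p in the set, and those of Atp5g2 and Cox5b because a second probe of each gene gave other values. Atp5g1 and Atp5g2 encode the same mature c subunit of the ATP synthase ring, and Cox5b encodes a subunit of complex IV. Each probe lies in coding sequence, with positions on rat build rn3 as the files give them.
Atp5g1 probe (chr10:84803196-84803529, reverse strand): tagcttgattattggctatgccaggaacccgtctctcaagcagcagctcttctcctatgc
Atp5g2 probe (chr7:141491631-141491690, reverse strand): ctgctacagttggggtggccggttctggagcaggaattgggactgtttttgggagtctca
Cox5b probe (chr9:35627602-35627823, forward strand): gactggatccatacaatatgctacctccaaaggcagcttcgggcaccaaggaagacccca

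Promoters, from 250 bases before to 50 bases after the annotated start, were matched in the RefSeq table of build GRCr8 for 60 of the 68 genes left once Cox4nb, Cox6b and Cox6c1 were set aside. The 3 shown belong to the genes whose difference between sexes in vehicle had the smallest adjusted p in the set. Capitals mark matches, on either strand, to the motifs of NRF1 (GCGCA and GCGC with 1 base between), YY1 (AAGATGGCG), the ETS family (CCGGAAG), SP1 (GGGCGG) and the CCAAT box (CCAAT), which in the Atp5g1 promoter lie partly over each other.
Atp5g1 promoter (chr10:81523296-81523595, reverse strand): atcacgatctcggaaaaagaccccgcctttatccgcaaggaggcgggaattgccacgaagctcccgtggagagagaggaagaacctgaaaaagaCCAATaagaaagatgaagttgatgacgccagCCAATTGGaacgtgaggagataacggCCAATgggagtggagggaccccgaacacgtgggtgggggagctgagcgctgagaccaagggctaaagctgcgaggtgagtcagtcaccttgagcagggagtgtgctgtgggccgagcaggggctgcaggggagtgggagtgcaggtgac
Ndufs3 promoter (chr3:97339605-97339904, reverse strand): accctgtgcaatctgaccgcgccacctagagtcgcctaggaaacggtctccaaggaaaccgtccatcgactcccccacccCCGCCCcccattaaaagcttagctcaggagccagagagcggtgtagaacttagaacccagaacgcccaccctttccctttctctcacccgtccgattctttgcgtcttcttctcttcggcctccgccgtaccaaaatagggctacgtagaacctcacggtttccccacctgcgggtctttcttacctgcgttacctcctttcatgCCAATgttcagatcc
Ndufb7 promoter (chr19:41477242-41477541, reverse strand): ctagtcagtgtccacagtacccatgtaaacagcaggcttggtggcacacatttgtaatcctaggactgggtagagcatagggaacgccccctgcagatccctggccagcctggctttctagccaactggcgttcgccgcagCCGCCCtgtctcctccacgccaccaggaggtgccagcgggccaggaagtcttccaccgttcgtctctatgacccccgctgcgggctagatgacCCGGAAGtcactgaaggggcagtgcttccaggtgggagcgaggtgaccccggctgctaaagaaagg

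The Atp5g1 promoter held 4 CCAAT matches and none of the other 4 motifs. That of Ndufs3 held 1 SP1 and 1 CCAAT match, and that of Ndufb7 held 1 ETS and 1 SP1 match. Over these 60 promoters, the NRF1 motif was present in 23.3%, against 4.71% of all 27457 promoters of the same length in the table. YY1 was present in 15% of the members' promoters against 1.93% of all, and the ETS motif in 30% against 9.22%. The SP1 motif was found in 45% and 34.9%, and CCAAT in 35% and 37.7%. The members' windows were richer in G and C, with a median of 56.7% against 52.3%. By complex, the NRF1 motif was present in 7 of 29 promoters of complex I, 1 of 4 of complex II, 1 of 4 of complex III, 0 of 10 of complex IV and 5 of 13 of complex V. The full glucocorticoid response element (AGAACA and TGTTCT with 3 bases between) was in 0 of the 60 windows and in 2 of all 27457, and its half-site (AGAACA) in 8.33% against 20.1%.

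Libraries stood apart by slide, of which there were 3. Male dexamethasone replicate 1 and every male vehicle array were on slide 1. Slide 2 carried the remaining male dexamethasone arrays beside female vehicle replicates 1 and 2, and slide 3 the female dexamethasone arrays beside female vehicle replicate 3. On slide 1, 46% to 66.5% of probes were well above background and the median coefficient of variation of replicated probes was 21.2% to 30.6%, against 72.4% to 80.4% and 9.95% to 13% on the other slides. Among the members the median SD over 3 arrays was 0.07 in female dexamethasone, 0.08 in female vehicle, 0.12 in male dexamethasone and 0.22 in male vehicle, and over all genes 0.16, 0.20, 0.25 and 0.39. The sex field of the labels reads male for all 12 samples; by a probe described as similar to Xist, the female titles had levels of 0.46 to 1.16 and the male titles -6.76 to -5.30, 6 arrays each. All 15 hepatocyte markers were detected on every array, but for 1 of them in male vehicle.

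**Figure D1:**
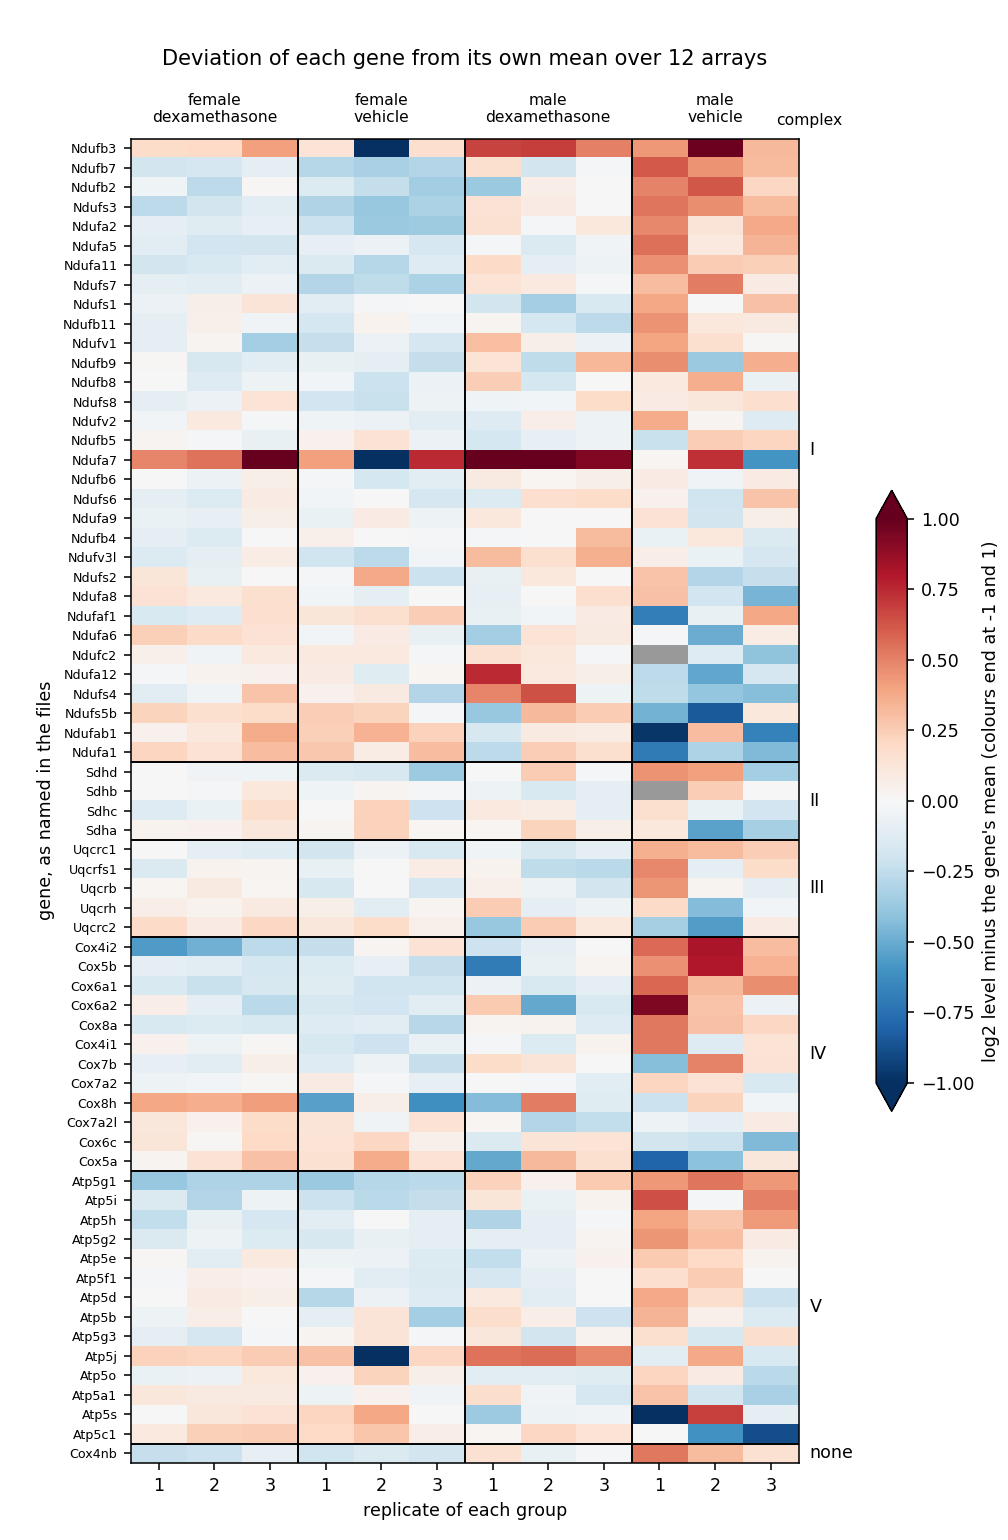
Each row is one of the 68 tested genes, grouped by complex and ordered within it by its mean on the male vehicle arrays, and each column is an array. Colour gives the log2 level minus the gene's own mean over 12 arrays, and grey cells are spots left out as outliers. The medians of the male vehicle columns are 0.27, 0.11 and 0.08, where all genes tested give 0.11, 0.08 and -0.01 on these arrays. Those of the other 9 columns lie between -0.08 and 0.04. The dark blue cells of female vehicle replicate 2 are Ndufb3, Ndufa7 and Atp5j.

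The male vehicle arrays stood apart from the other 9 for part of the set. For 15 of 68 members the 3 male vehicle arrays lay above all 9 other arrays, where 5.81% of all genes tested did so, and for 5 members those with a value lay below all 9, against 4.26% of all genes; Ndufc2, among the 5, has a value on only 2 of the 3. The 15 that were highest on male vehicle arrays were Ndufa5, Ndufa11, Ndufb2, Ndufb7, Ndufb11 and Ndufs3 of complex I, Uqcrc1 of complex III, Cox4i2, Cox5b, Cox6a1 and Cox8a of complex IV, Atp5g1, Atp5g2 and Atp5h of complex V, and Cox4nb. The 5 lowest there were Ndufa1, Ndufa12, Ndufc2, Cox6c and Atp5c1. For female dexamethasone arrays the counts were 1 above (3.28% of all genes) and 1 below (2.68%), for female vehicle 0 (2.61%) and 5 (3.03%), and for male dexamethasone 2 (2.03%) and 2 (2.59%). All 3 male vehicle arrays lie on slide 1. The part of the slide in these differences was not tested except through the fits with slide as a block, given beside the results. In those fits the male response comes from slide 1 alone, with 1 treated array. The female response comes there from slide 3 alone, with 1 vehicle array. The response in males and the comparison of sexes in vehicle share the male vehicle arrays.

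In male hepatocytes dexamethasone left most of the set without a call. Calls are by limma, Benjamini-Hochberg adjusted over all genes at a threshold of 0.05. By these, 4 of 68 members fell and 1, Ndufs4, passed in the other direction, from vehicle levels not well above background. In all 7.35% of the set was called, where 10.1% of all genes tested were, 5.21% higher and 4.89% lower. The 4 that fell were Cox5b, Cox4i2 and Cox6a1 of complex IV and Atp5h, a stator subunit of the ATP synthase. The median difference of the members was -0.09 on the log2 scale, against -0.07 over all genes, and 58 of 68 differed by less than 0.5 in either direction. Treated arrays lay above all vehicle arrays for 9 members (11.3% of all genes) and below them for 18 (14.4%). The split of calls depended on the scaling: with quantile normalization, which put the median of all genes at 0.04 and that of the members at 0.01, 5 members were higher and 1 lower, and with median scaling 0 were higher and 9 lower.

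Cox6a1, the form of the subunit used outside muscle, had levels of 7.85, 7.75 and 7.81 in male dexamethasone and 8.48, 8.23 and 8.37 in male vehicle. The groups did not overlap, and male dexamethasone replicate 1, on the same slide as the vehicle arrays, lay with the other treated arrays. The difference was -0.55 ± 0.13 (SE; 1.47-fold lower, limma adjusted p = 0.0233). Its muscle paralog Cox6a2 had levels of 2.04, 1.27 and 1.63 in male dexamethasone and 2.71, 2.07 and 1.72 in male vehicle, which overlapped, with a difference of -0.52 ± 0.26 (limma adjusted p = 0.226).

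Cox4i2, the isoform of subunit 4 best known from lung and from low oxygen, had levels of 0.35, 0.46 and 0.55 in male dexamethasone and 1.12, 1.37 and 0.86 in male vehicle. All treated arrays lay below all vehicle arrays, and the difference was -0.67 ± 0.17 (1.59-fold lower, limma adjusted p = 0.0382). The general isoform Cox4i1 differed by -0.22 (limma adjusted p = 0.452), with overlapping arrays. Atp5h had levels of 4.64, 4.85 and 4.92 in male dexamethasone and 5.34, 5.21 and 5.36 in male vehicle, a difference of -0.50 ± 0.14 (1.41-fold lower, limma adjusted p = 0.0419).

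Cox5b had levels of 4.28, 4.90 and 5.00 in male dexamethasone and 5.43, 5.78 and 5.32 in male vehicle by the probe printed above, a difference of -0.78 ± 0.20 (1.72-fold lower, limma adjusted p = 0.0354). A second Cox5b probe gave 5.02, 4.77 and 4.83 in male dexamethasone and 5.31, 3.96 and 4.80 in male vehicle. It ran the other way, at 0.18, with the vehicle arrays spread over more than the whole range of the treated ones. The mean of both probes differed by -0.30 (limma adjusted p = 0.255).

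The 1 member called higher was Ndufs4, an accessory subunit that helps to hold the NADH-oxidising module in complex I, with levels of -4.66, -4.52 and -5.21 in male dexamethasone and -5.41, -5.54 and -5.58 in male vehicle. It was not well above background on any of the 3 male vehicle arrays, where the lowest signal well above background averaged -3.84. It was well above background on all 3 male dexamethasone arrays, but their mean, -4.80, lay under that limit of the vehicle arrays. No fold is therefore given and a rise was not measurable. The fit still put the gene just under the threshold (limma adjusted p = 0.05 when rounded). With the replicate number as a block its adjusted p was 0.0580, and the block added Ndufa1 (limma adjusted p = 0.0298), Ndufb7 (limma adjusted p = 0.0483) and Ndufs1 (limma adjusted p = 0.0487), while 15.7% of all genes were then called.

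With slide as a block 2 members passed in males, where 1.78% of all genes did. They were Cox5b at -1.23 (limma adjusted p = 0.0397) and Ndufa12, an accessory subunit of complex I, at 1.07 (limma adjusted p = 0.0490). The slide block reads the male response within slide 1, the only slide with both male groups, and so from 1 treated array. Fitted on slide 1 alone, that array against 3 vehicle arrays gave the same -1.23 for Cox5b and 1.07 for Ndufa12. The differences there were -0.51 for Cox6a1, -0.77 for Cox4i2, -0.66 for Atp5h and 0.85 for Ndufs4. All are values from a single treated array, where Ndufa12 deviated from its mean by 0.749, against 0.098 and 0.061 on the other male dexamethasone arrays. Array weights ended all 5 calls, where 3.69% of all genes were called; the smallest adjusted p among the 5 was then 0.0597, for Cox6a1. Fitted on the 6 male arrays alone, 0 members passed, where 0.915% of all genes did. No call in males was kept in all 12 fits that left out 1 array. Leaving out male vehicle replicate 2 or 3 gave 6 or 5 calls, male vehicle replicate 1 gave 3, male dexamethasone replicate 2 gave 0, and each of the other 8 gave 1 or 2; Cox6a1 kept its call in 10 of these 12 fits, where its highest adjusted p was 0.0748.

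By complex, the male response had a median difference of 0.02 over 32 members of complex I, -0.02 over 4 of complex II, -0.19 over 5 of complex III, -0.19 over 12 of complex IV and -0.12 over 14 of complex V. In complex I 15 of 32 differences were below 0, in complex IV 9 of 12 and in complex V 11 of 14. Within complex I the 7 core subunits, which carry the redox centres, had a median of -0.13 and the 24 accessory subunits of 0.04. Within complex V the 8 subunits of the membrane part and stator had a median of -0.26, and the 5 of the catalytic head of -0.07. These medians are descriptions of the members on shared arrays.

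In female hepatocytes 0 of 68 members were called for dexamethasone by limma, where 4.13% of all genes were, and 2 had an unadjusted p under 0.05. Array weights gave 1 call, where 17.2% of all genes were called, and the replicate block 0, where 6.75% were. The median difference was 0.04 over the members and -0.02 over all genes, and the median size of a difference, regardless of sign, was 0.08 against 0.23. Members also scattered less within a group. Their median SD was 0.07 in female dexamethasone and 0.08 in female vehicle, against 0.16 and 0.20 over all genes. The sizes alone therefore do not compare the strength of the response. The median differences by complex were 0.05, 0.01, 0.06, 0.02 and 0.05 for complexes I to V. Of the 68, 64 differed by less than 0.5. Treated arrays lay above all vehicle arrays for 14 members (16.8% of all genes) and below them for 2 (17%).

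The 4 beyond that were Ndufa7, Ndufb3, Atp5j and Cox8h, and 3 of these rest on 1 place on 1 array. Ndufb3, an accessory subunit of complex I, had levels of 5.38, 5.40 and 5.61 in female dexamethasone and 5.34, 0.49 and 5.37 in female vehicle. Atp5j, a stator subunit, had 5.53, 5.51 and 5.56 in female dexamethasone and 5.60, 2.41 and 5.51 in female vehicle. Ndufa7, another accessory subunit of complex I, had 0.49, 0.55 and 1.02 in female dexamethasone and 0.42, -6.46 and 0.75 in female vehicle. In each case the middle vehicle value, replicate 2, stood alone.

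On that array 160 bright probes were dimmer by 2 or more on the log2 scale than on both other arrays of the group. Of these, 138 (86.2%) lay in rows 245 to 293 and columns 37 to 49 of a grid of 532 rows and 85 columns. The edges of this block were drawn from the positions of the same 160 probes, with the outermost left out. A large share inside was therefore given in advance, and the small size of the block is what was found. It holds 1.43% of the probes and all 3 genes. The spots of the 3 genes were not flagged as outliers. With the block of that array left out, the female response was 0.11 for Ndufb3, -0.02 for Atp5j and 0.10 for Ndufa7, against 1.73, 1.03 and 2.45 with it. The difference between sexes in vehicle was -0.43, 0.21 and 0.53 for the 3 genes, against -2.05, -0.83 and -1.82 with the block in.

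**Figure D2:**
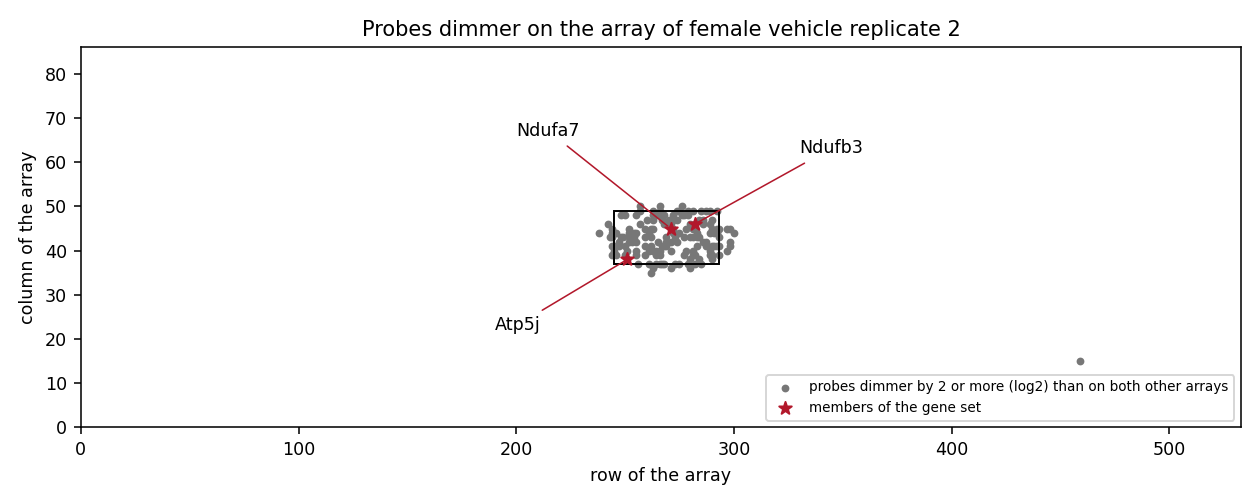
Grey points are the 160 probes on the array of female vehicle replicate 2 that were dimmer by at least 2 (log2) than on both other arrays of the group, placed by array row and column. Stars are the 3 affected members. The box, drawn from the positions of these same points, spans rows 245 to 293 and columns 37 to 49, and nearly all points fall in or beside it.

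Cox8h, the heart and muscle form of complex IV subunit 8, was dim on all arrays. Its levels were -3.96, -3.99 and -3.93 in female dexamethasone and -4.89, -4.29 and -4.96 in female vehicle, without overlap, and the difference was 0.75 ± 0.26 (limma adjusted p = 0.140). On slide 3 alone, 3 treated arrays against 1 vehicle array, it was 1.00, a value from a single vehicle array, and with array weights 0.82 (limma adjusted p = 0.00817). Its other 2 probes, dimmer still, differed by -0.87 and -0.79 in females. In males the probe used for the gene differed by -0.01.

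Cox4i2 had levels of -0.02, 0.07 and 0.29 in female dexamethasone and 0.32, 0.58 and 0.70 in female vehicle. As in males, all treated arrays lay below all vehicle arrays, and the difference was -0.42 ± 0.17 (limma adjusted p = 0.243). Averaged over both sexes, a contrast added after the data were seen, Cox4i2 fell by 0.54 ± 0.12 (limma adjusted p = 0.0168), the only 1 of 68 members called where 13.4% of all genes were. With slide as a block that difference was -0.68 (limma adjusted p = 0.0807), and 3.7% of all genes passed.

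The responses of the sexes were set against each other as an interaction, female response minus male response. Here 0 of 68 members were called by limma, where 0.105% of all genes were, and 8 had an unadjusted p under 0.05; the alternative fits called 0 too. The median was 0.21 over the members and 0.07 over all genes, and by complex 0.11, 0.10, 0.33, 0.31 and 0.29 for complexes I to V. The smallest adjusted p in each of complexes I, III and IV was that of Ndufb7 at 0.62 (limma adjusted p = 0.225), Uqcrc1, a core protein, at 0.47 (limma adjusted p = 0.311), and Cox6a1 at 0.55 (limma adjusted p = 0.236). The calls for Cox6a1, Cox5b, Cox4i2 and Atp5h in males are therefore not shown to differ from the female response.

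**Figure D3:**
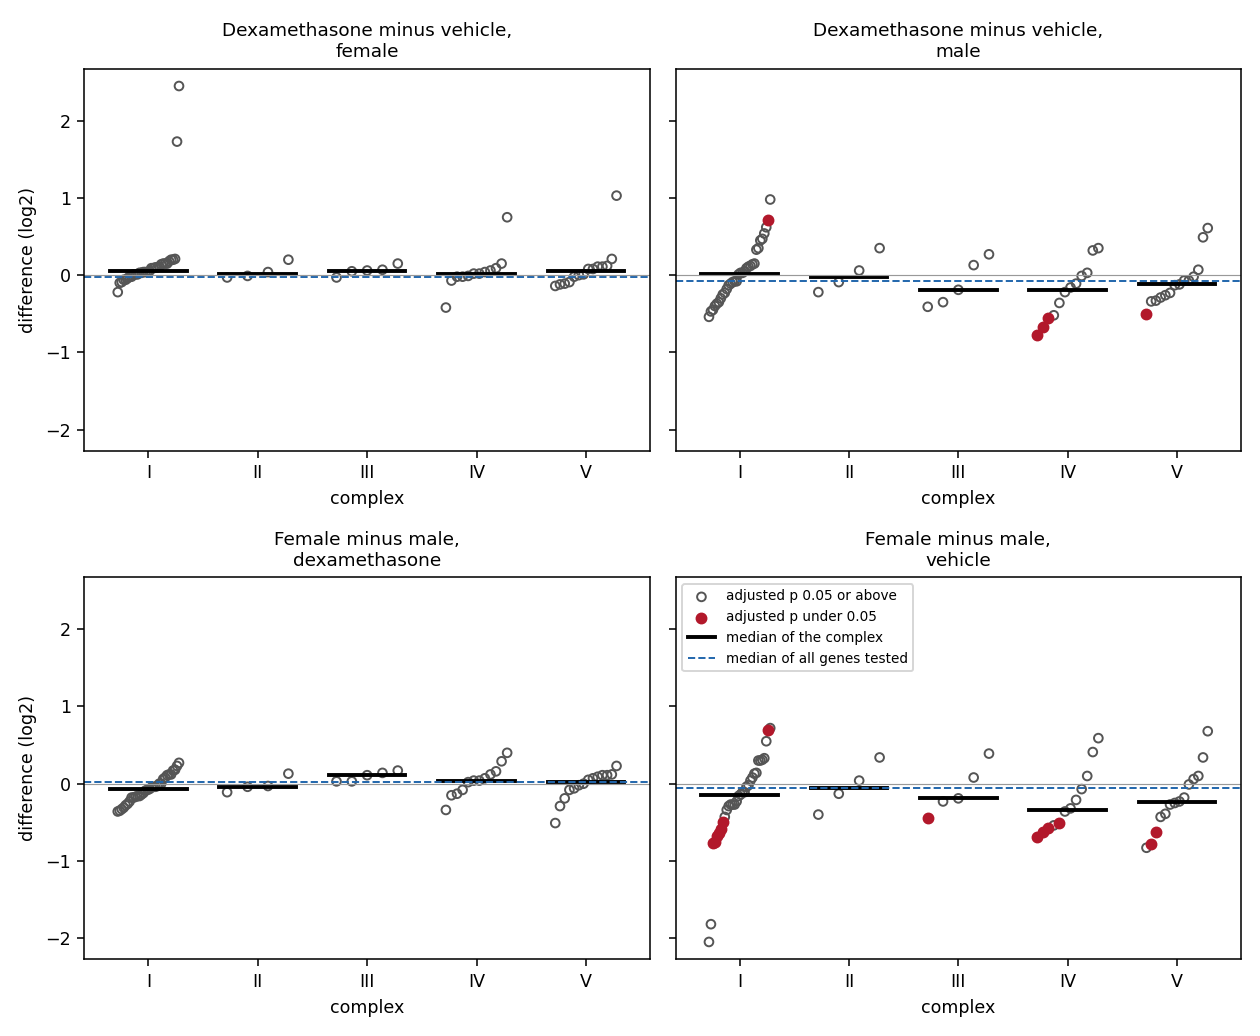
Each point is a gene, placed by complex and by its difference on the log2 scale, for dexamethasone minus vehicle (upper panels) and female minus male (lower panels). Filled points passed the threshold, black bars are medians of a complex and the dashed line is the median of all genes tested. Filled points appear in both panels that use the male vehicle arrays and in neither of the others; the 3 genes of the dim block are the outlying points of complexes I and V.

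In vehicle, females and males differed at 15 of 68 members, 22.1% of the set where 13.8% of all genes were called. In females 14 were lower, against a background of 7.96%, and 1 was higher, against 5.82%. The median difference, female minus male, was -0.22 over the members and -0.06 over all genes. Female arrays lay above all male arrays for 6 members (13.3% of all genes) and below them for 24 (17.9%). With quantile normalization, which put the median of all genes at 0.09 and that of the members at -0.02, 5 members were higher and 8 lower. The lower ones were Ndufa2, Ndufa11, Ndufb2, Ndufb7, Ndufs3 and Ndufs7 of complex I, Uqcrc1 of complex III, Cox4i2, Cox5b, Cox6a1 and Cox8a of complex IV, Atp5g1 and Atp5i of complex V, and Cox4nb; Ndufa1 was the one that was higher. None of the 4 members of complex II was called. For Cox5b the call rests on the brightest probe, at -0.69, while its second probe differed by -0.07.

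Atp5g1, the c subunit gene whose probe is printed above, had levels of 5.24, 5.32 and 5.34 in female vehicle and 6.04, 6.14 and 6.05 in male vehicle. The difference was -0.78 ± 0.13 (1.71-fold lower, limma adjusted p = 0.00453). The 6 female arrays of both treatments lay at 5.23 to 5.34 and the 6 male arrays at 5.66 to 6.14, on 2 slides for each sex. The other c subunit genes gave -0.39 for Atp5g2 (limma adjusted p = 0.0857) and -0.01 for Atp5g3 (limma adjusted p = 0.978).

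Ndufs3, a core subunit of complex I next to the quinone site, had levels of 4.08, 4.0 and 4.06 in female vehicle and 4.92, 4.84 and 4.70 in male vehicle, a difference of -0.77 ± 0.13 (1.71-fold lower, limma adjusted p = 0.00496). Ndufb7, an accessory subunit of the membrane arm, had 5.05, 5.01 and 5.05 in female vehicle and 5.95, 5.79 and 5.65 in male vehicle, a difference of -0.76 ± 0.14 (1.69-fold lower, limma adjusted p = 0.00787). Neither pair of groups overlapped, and the 3 female vehicle arrays were the lowest of all 12 for both genes.

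Cox6a1 had levels of 7.79, 7.71 and 7.71 in female vehicle and 8.48, 8.23 and 8.37 in male vehicle, a difference of -0.63 ± 0.13 (1.54-fold lower, limma adjusted p = 0.0111). Its 9 arrays outside male vehicle, both sexes and treatments together, spanned 7.68 to 7.85. Ndufa1, an X-linked accessory subunit of complex I, had 5.19, 4.99 and 5.23 in female vehicle and 4.21, 4.61 and 4.48 in male vehicle, a difference of 0.70 ± 0.18 (1.63-fold higher, limma adjusted p = 0.0254). The 4 arrays of slide 1, male dexamethasone replicate 1 included, lay at 4.21 to 4.66 and the other 8 at 4.99 to 5.23.

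The other called members fell between -0.44 and -0.69 on the log2 scale, with limma adjusted p from 0.0152 for Ndufa2 to 0.0494 for Cox4i2. Among them Uqcrc1 had levels of 2.59, 2.72 and 2.63 in female vehicle and 3.13, 3.1 and 3.02 in male vehicle, a difference of -0.44 ± 0.12 (1.35-fold lower, limma adjusted p = 0.0413). Cox8a, the general form of subunit 8, differed by -0.51, Atp5i of the ATP synthase membrane part by -0.62, Ndufb2 by -0.68 and Ndufs7, another core subunit, by -0.59. Atp5g1, Ndufs3, Ndufb7 and Cox6a1 kept their calls in each of the 12 fits that left out 1 array. The count of calls was 4 or 5 without any one female vehicle array, 8 without any one female dexamethasone array, 9 without male vehicle replicate 1, and 10 to 18 without any of the other 5 male arrays.

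With slide as a block none of the 68 members passed between sexes in vehicle, where 0.501% of all genes did, and the differences were -0.72 for Atp5g1 (limma adjusted p = 0.233), -0.67 for Ndufs3, -0.50 for Ndufb7, -0.54 for Cox6a1 and 0.19 for Ndufa1. No slide held both sexes under 1 treatment, so that these values are indirect. With array weights 8 members passed, where 7.38% of all genes did: 7 of the 15, namely Atp5g1, Ndufs3, Ndufb7, Cox6a1, Ndufa2, Ndufs7 and Ndufa1, with Atp5c1 added. Fitted on the 6 vehicle arrays alone, 0 members passed, where 3% of all genes did, and Atp5g1 had a limma adjusted p of 0.0641.

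**Figure D4:**
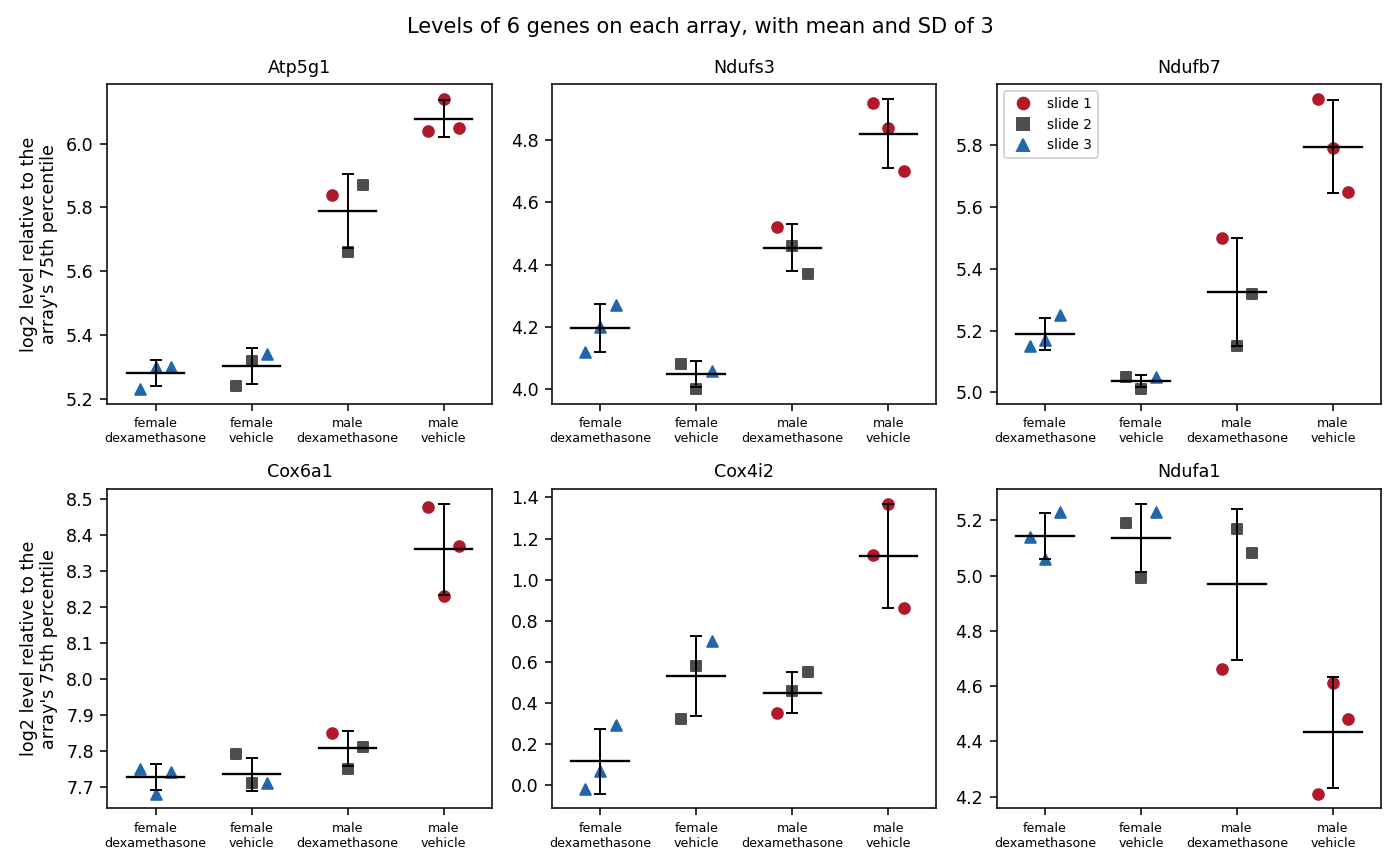
Levels of 6 genes on each array (log2, relative to the array's 75th percentile), by group, with bars for the mean and SD of 3; marker shape and colour give the slide. Atp5g1 separates by sex across slides, Cox6a1 is high on the 3 male vehicle arrays alone, Cox4i2 is lower in dexamethasone than in vehicle in each sex, and the male dexamethasone array of slide 1 lies near the male vehicle arrays for Ndufa1.

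In dexamethasone, females and males differed at 0 of 68 members by limma, where 2.9% of all genes were called, and 2 had an unadjusted p under 0.05. Array weights gave 2 calls, where 15.5% of all genes were called. The median was -0.03 over the members and 0.02 over all genes, and 67 of 68 differed by less than 0.5. Female arrays lay above all male arrays for 6 members (16.6% of all genes) and below them for 13 (15.7%). Atp5g1 was the exception, with levels of 5.23, 5.30 and 5.30 in female dexamethasone and 5.84, 5.66 and 5.87 in male dexamethasone, without overlap, a difference of -0.51 ± 0.13 (limma adjusted p = 0.0605). With array weights it was -0.54 (limma adjusted p = 0.00516). Ndufs3 differed by -0.26 (limma adjusted p = 0.329) and Ndufb7 by -0.14 (limma adjusted p = 0.679). This comparison uses no male vehicle array.

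Averaged over both treatments, another contrast added after the data were seen, 12 of 68 members were called between sexes, 17.6% of the set where 16.8% of all genes were. Atp5g1 had -0.64 ± 0.09 (limma adjusted p = 0.00125) and Ndufs3 -0.51 ± 0.09 (limma adjusted p = 0.00443). With slide as a block these were -0.63 and -0.46, and 0 members passed, where 0.614% of all genes did.

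Genes with several probes showed how far a result rests on the probe. Of 8 such members, the probes of 4 had the same sign in the male response, 3 in the female response and 7 between sexes in vehicle. Only the sign is counted, so that Cox5b is among the 7 with -0.69 and -0.07. Differences near 0 can also count as unlike, as in the female response for Atp5g2 at 0 and 0.02 and Ndufa9 at -0.02 and 0.02. For Atp5g2 the brightest probe lay at 6.28 to 6.81 on slide 1 and at 6.2 to 6.39 on slides 2 and 3. The second Atp5g2 probe, printed above, lay at 5.43 to 6.00 on the 4 arrays of slide 1 and at 4.82 to 5.05 on the other 8, without overlap, and male dexamethasone replicate 1 at 5.87 stood with the male vehicle arrays and apart from its own group at 4.82 and 4.88. Its male response was -0.59 and its difference between sexes in vehicle -0.81, against -0.33 and -0.39 for the brightest probe.

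**Figure D5:**
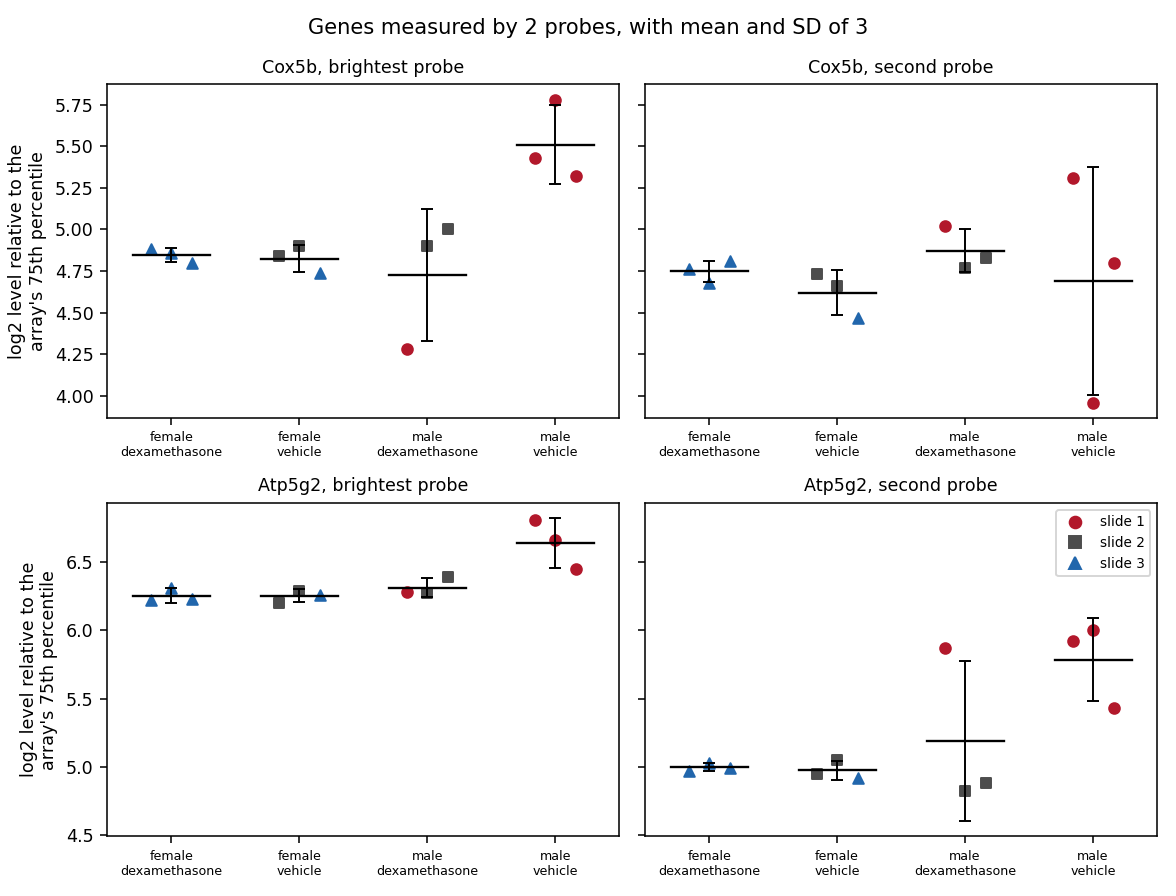
Levels of the 2 probes each of Cox5b (above) and Atp5g2 (below) on every array, by group, with the mean and SD of 3 and the slide as marker. The 2 Cox5b probes disagree on male vehicle arrays, and the second Atp5g2 probe separates the 4 arrays of slide 1 from the other 8.

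Some subunits were read in every complex whatever their result. Among them Cox6a1 and Uqcrc1 had calls, which are given above, and Cox4i1 had none. In the male and female responses, Ndufs1 differed by -0.45 and 0.09, Ndufv1 by -0.09 and 0.01, Sdha by 0.35 and -0.03 and Sdhb by -0.22 and 0.04. Uqcrfs1, the Rieske iron-sulfur protein, differed by -0.35 and -0.03, Cox5a by 0.35 and -0.07, and the ATP synthase subunits Atp5a1, Atp5b and Atp5o by 0.07, -0.07 and -0.13 in males and 0.11, 0.11 and -0.11 in females. Apart from Cox6a1 and Uqcrc1, none of these passed the threshold in any of the 5 comparisons. Sdhb and Ndufc2 had no value on male vehicle replicate 1, where their spots were outliers.

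Partners of the set outside the name rule were read from lists. Cytochrome c (Cycs) differed by 0.08 in males and -0.14 in females, Cyc1 of complex III by -0.14 and 0.07, and citrate synthase (Cs) by -0.08 and -0.06, all with limma adjusted p above the threshold in the 5 comparisons. Of 17 measured genes of the citric acid cycle and pyruvate dehydrogenase, 0 were called in either response. Over all genes 10.1% were called in males and 4.13% in females. Pdha1 was 1.84-fold higher in females in vehicle (limma adjusted p = 0.0106, and 0.242 with slide as a block). Of 25 measured assembly factors, Bcs1l, which inserts the Rieske protein, rose 1.75-fold in males (limma adjusted p = 0.0116) and Ecsit fell 1.51-fold (limma adjusted p = 0.0207), where 10.1% of all genes were called. Both calls were lost with slide as a block (limma adjusted p = 0.0934 and 0.167). In females 0 of 25 were called, where 4.13% of all genes were. For 11 probes whose names in the files are accessions of the mitochondrial genome, 1 of 11 was called in males, higher, and 0 in females. The shares over all genes were 10.1% and 4.13%.

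Regulators of mitochondrial biogenesis formed another list. Of 18 tested, 2 rose and 2 fell in males, where 10.1% of all genes were called, and 2 rose and 1 fell in females, where 4.13% were. With slide as a block every one of these 7 calls was lost. Polg2, the accessory subunit of the mitochondrial DNA polymerase, rose 3.1-fold in males (limma adjusted p = 0.00347) and 3.12-fold in females (limma adjusted p = 0.00506), with 0.0911 and 0.0826 in the slide block. Ppargc1a, a coactivator of respiratory genes and of gluconeogenesis, had levels of -5.50, -5.20 and -5.94 in female dexamethasone and -9.37, -7.17 and -8.53 in female vehicle. No female vehicle array had it well above background, so the rise in female dexamethasone has only a bound, at least 2.85-fold higher, where the bright mean is set against the lowest signal well above background on each dim array (limma adjusted p = 0.0175; 0.140 with slide as a block).

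In males Ppargc1a was not well above background in vehicle either and its treated mean lay under the lowest signal well above background there, so that no fold is given (limma adjusted p = 0.349). Ppargc1b rose 2.71-fold in males (limma adjusted p = 0.0363; 0.334 with slide as a block). In females its difference was of like size, 2.74-fold, with a limma adjusted p of 0.0557, and of 0.0356 with the replicate block. Nrf1, the factor whose motif is counted above, fell 1.5-fold in males (limma adjusted p = 0.0388; 0.290 with slide as a block) and differed by -0.35 in females (limma adjusted p = 0.275). Tfam, which packages and transcribes mitochondrial DNA, differed by 0.54 in males (limma adjusted p = 0.0795) and -0.11 in females (limma adjusted p = 0.875), and was 1.74-fold higher in females in vehicle (limma adjusted p = 0.0155; 0.452 with slide as a block).

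Among the lists of cell markers, that of stellate cells and fibroblasts had the most calls between sexes in vehicle, a comparison that uses the male vehicle arrays of slide 1. Between sexes in vehicle, 5 of 10 tested stellate cell and fibroblast markers were higher in females and 0 lower, 2 of 13 Kupffer cell markers were higher and 0 lower, and 2 of 15 hepatocyte markers were lower, where 5.82% of all genes were higher and 7.96% lower. Of the 10, Pdgfrb and Rgs5 were well above background on every array of a group only in females. They entered the test through the female groups alone, so the filter partly sets the counts of this list between sexes. The summed linear level of the 11 stellate cell markers was 88.6 to 128 in female vehicle and 95.9 to 121 in male vehicle. Timp1 alone made up 74 to 119 and 88.6 to 116 of it, and without Timp1 the 9 other tested markers summed to 8.66 to 14.8 in female vehicle and 4.85 to 7.55 in male vehicle. Lrat was at least 6.45-fold and Pdgfrb at least 4.89-fold higher in female vehicle. The summed level of 13 Kupffer cell markers was 53.0 to 108 in female vehicle and 51.6 to 99.2 in male vehicle, and that of 15 hepatocyte markers 1160 to 1540 and 1770 to 2390. In male vehicle the stellate cell markers Lrat, Pdgfrb, Rgs5 and Lum were not well above background on any array, and in female vehicle Lum was not. Of the endothelial markers 1 was higher and 1 lower, of the cholangiocyte markers 1 and 1, and of the muscle markers 0 and 1; their part in the differences of the subunit genes was not tested. Between sexes in dexamethasone, 2 of the 10 stellate cell and fibroblast markers were higher in females and 0 lower. Of the 13 Kupffer cell markers 0 were called there, where 2.9% of all genes were. In bulk samples fewer cells of a type and less RNA per cell cannot be told apart.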

How the data were processed

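RNA of 12 hepatocyte cultures was labelled with Cy3 and hybridised to 1-colour rat arrays, per the labels. Per the file headers, the deposited intensity of each spot is the processed signal of Agilent Feature Extraction, background-subtracted within the array and not scaled between arrays; the submitters' processing notes name version 9.5. The authors' deposited value table holds the same linear intensity, since 540216 of 540216 values equalled it within a relative difference of 1e-06; it is neither scaled nor centred, and its column medians were 44.7 to 112. Positions are on build rn3, per the file headers.

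Outlier spots were left out, saturated ones kept, and spots of a probe averaged. Log2 signals, with no pseudocount, were set relative to each array's 75th percentile; that percentile ranged from 509 to 1241 in the deposited signal. Kept were the 30979 probes flagged well above background on each array of any group, and the brightest probe stood for each gene. Names were updated through RefSeq for 19880 probes; 21132 kept the file's name. limma 3.58.1 in R 4.3.3 fitted 4 group means to 12 arrays, with two-sided tests, contrasts female minus male and dexamethasone minus vehicle, Benjamini-Hochberg adjustment over all genes and a threshold of 0.05. Errors after a difference are SEs. Arrays give no read depth; their number limits the precision. The fitting code was tested on simulated data.

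Alternatives were quantile or median scaling, normexp with an offset of 50, other filters on dim probes, saturated spots left out, slide or replicate blocks, array weights, the mean of a gene's probes, the groups compared alone, and each array left out. The members, gene lists and tests were chosen with earlier results of these data known. Named genes are the largest calls, the smallest p in each complex, and set subunits and regulators. Same-numbered dexamethasone and vehicle arrays of a sex deviated together (r = 0.2622 to 0.46). No label states such a pairing, and arrays of unlike number were not set against each other. The main fit therefore has no block, and the replicate block is an alternative. Same-numbered arrays of the sexes also deviated together in dexamethasone (r = 0.17 to 0.1982), where the block changed no member's call. In vehicle they did so little or not at all (r = 0.01498 to 0.1099).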

Additional observations from a re-analysis of the deposited data

How the results depend on the processing

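Counts of calls depended on the setting, and some medians did. Of 122 recomputed counts of calls, 86 stayed near the reported one and 36 moved. Of 720 recomputed medians, 707 stayed near and 13 moved. Quantile scaling put the members' median at 0.01 in the male response, against -0.09, and at -0.02 between sexes in vehicle, against -0.22. Of 479 recomputed values of the 20 calls, 3 turned direction, under normexp background correction: Cox5b to 0.01 and Ndufs4 to -0.25 in the male response, and Cox5b to 0.17 between sexes in vehicle. Another 188 kept direction and lost the threshold; the cause was not tested.

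The male response gave 5 calls as reported, 9 with median scaling, 12 with normexp, 10 with no filter on dim probes, 10 with probes above background on all 12 arrays, 2 with slide as a block, 0 on the groups alone, 0 with array weights, 3 with the mean of a gene's probes, and 0 to 6 leaving out 1 array. The female response gave 1 with array weights and 0 in each fit without 1 array. Between sexes in vehicle 15 calls became 23 with normexp, 0 with slide as a block, 0 on the groups alone, 8 with array weights and 4 to 18 without 1 array. Between sexes in dexamethasone there was 1 with probes above background on all 12 arrays, 2 with array weights and 0 to 1 without 1 array. The interaction gave 0 in every fit. For the added contrasts a slide block gave 0 in place of 1 and of 12. The replicate block gave 7 calls in males and 15 between sexes in vehicle, and among the 68 members changed no call outside the male response. Among the listed partners and regulators it added Ppargc1b in females (limma adjusted p = 0.0356) and ended Bcs1l between sexes in vehicle (limma adjusted p = 0.0548, against 0.0490). Over all genes it moved the calls of the female response to 6.75% from 4.13%. Quantile scaling gave 6 and 13 calls in these comparisons, and median scaling put the median of all genes at -0.19 in the male response, against -0.07.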
